A study of Rattus norvegicus with 2 samples.

Results

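Fc receptors, the adaptors that signal for them and the related Trem receptors were examined in the lumbar spinal cord (SC) of rats with chronic constriction injury (CCI), a model of neuropathic pain. The 8 genes listed were Fcgr1a, Fcgr2a, Fcgr2b, Fcgr3a, Fcer1g, Tyrobp, Trem1 and Trem2. A gene entered if the array annotation gave it a probe set of its own, and the probe set was chosen by the highest mean value over both groups. This held for 6 of the 8 genes, out of 18171 genes measured in this way, and each of the 6 had a single probe set, so no choice between probe sets arose. Fcgr2a and Fcgr2b were covered by shared probe sets alone. Both groups were adult male Sprague-Dawley rats. In the CCI group the left sciatic nerve was loosely tied with 4 ligatures, while in Sham rats the nerve was exposed only. Segments L4-L6 of the SC were taken on day 10 after surgery, and the RNA of 3 rats was mixed into 1 sample per group, so that each group was 1 pool on 1 array. The labels do not say whether the injured side alone was taken.

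Fc receptors bind the constant part of antibodies, and on macrophages and microglia they trigger the uptake of antibody-coated material and the release of mediators. Most activating Fc receptors have no signalling motif of their own and pair with the adaptor FcRγ, encoded by Fcer1g. Trem receptors pair with the adaptor DAP12, encoded by Tyrobp. Both adaptors carry an immunoreceptor tyrosine-based activation motif (ITAM), which recruits the kinase Syk once it is phosphorylated, whereas Fcgr2b carries an inhibitory motif (ITIM) that recruits phosphatases. In the central nervous system these genes are known mainly from microglia and other macrophages.

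The transcription factors PU.1, encoded by Spi1, and C/EBPβ, encoded by Cebpb, are known regulators of myeloid genes. The upstream sequences of Fcgr3a and Trem2 are therefore shown, because Fcgr3a had the largest difference of the measured genes and Trem2 had a smaller one. They are the 250 bases before the annotated start, from RefSeq on the GRCr8 assembly, with matches to the letters GAGGAAG or their reverse complement CTTCCTC, a core taken for PU.1, in capitals.
Fcgr3a, chr13:85782386-85782635, plus strand: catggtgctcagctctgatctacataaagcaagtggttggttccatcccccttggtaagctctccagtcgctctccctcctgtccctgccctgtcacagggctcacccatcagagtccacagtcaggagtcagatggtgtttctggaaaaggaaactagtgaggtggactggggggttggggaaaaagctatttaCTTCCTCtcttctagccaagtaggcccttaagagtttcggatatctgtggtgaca
Trem2, chr9:20151780-20152029, minus strand: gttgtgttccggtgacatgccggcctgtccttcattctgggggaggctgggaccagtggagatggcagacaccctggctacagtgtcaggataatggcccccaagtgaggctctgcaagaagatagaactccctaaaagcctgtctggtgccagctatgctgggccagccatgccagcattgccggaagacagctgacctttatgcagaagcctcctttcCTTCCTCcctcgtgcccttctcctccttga
Such windows were found for 4 of the 8 genes, 3 of them measured. The start used for a window was not always the outermost base of the gene. The Trem2 window lies partly inside the gene, and those of Trem1 and Fcgr2a lie wholly inside it. The match lay 49 to 55 bases before the start in Fcgr3a and 24 to 30 bases before it in Trem2, and none was found for Trem1. For Fcgr2a, without a probe set of its own, a window held a match 96 to 102 bases before the start and another window held none. Of all 33469 windows of this length, 10.2% held the PU.1 letters on either strand. The C/EBP letters TTGCNNAA or their reverse complement TTNNGCAA occurred in 9.22% of all windows and in none of the 3 windows of measured genes. A match is a description of the letters and not a binding site.

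Expression is given as the log2 value after robust multi-array average (RMA) normalisation, 1 value per group. A difference is CCI minus Sham on this log2 scale, and a fold is the ratio derived from it. Where a pair of values is given for a gene, Sham comes first. Since either group was a single array, replicate error could not be estimated and nothing was tested, so every difference compares 2 mixtures of RNA. The fold threshold of the study's methods, 1.5, was used as a descriptive limit. Over all genes the median difference was -0.01 with an SD of 0.26. A rough background level, the 95th percentile of olfactory and vomeronasal receptor genes, was 4.44 in Sham and 4.36 in CCI. For a gene with only its Sham value at or below it, the fold is a lower bound, taken against the Sham background level, and with both values at or below it no fold is given. Counts of genes past 1.5-fold rest on the nominal difference unless the bound is named.

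All 6 measured genes had higher values in the CCI pool than in the Sham pool, Trem1 with both values below background, compared with 47.6% of all genes. Of these 6, Fcgr3a, Tyrobp, Fcer1g and Fcgr1a were past 1.5-fold, compared with 1.64% of all genes and 1.01% of the 9086 genes at or above the median level of 5.83. Fcgr3a and Tyrobp were past 2-fold, compared with 0.242% of all genes. None was lower past 1.5-fold, the background for which was 1.14%. With folds replaced by their lower bounds, the same 4 genes were past 1.5, compared with 0.925% of all genes. The median difference was 0.80 (1.74-fold), and the differences ran from 0.30 to 1.30. The genes were listed with earlier results of these arrays known, so these counts describe the genes and do not test them. In tissue RNA, more cells of a type cannot be told apart from more RNA per cell.

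**Figure D1:**
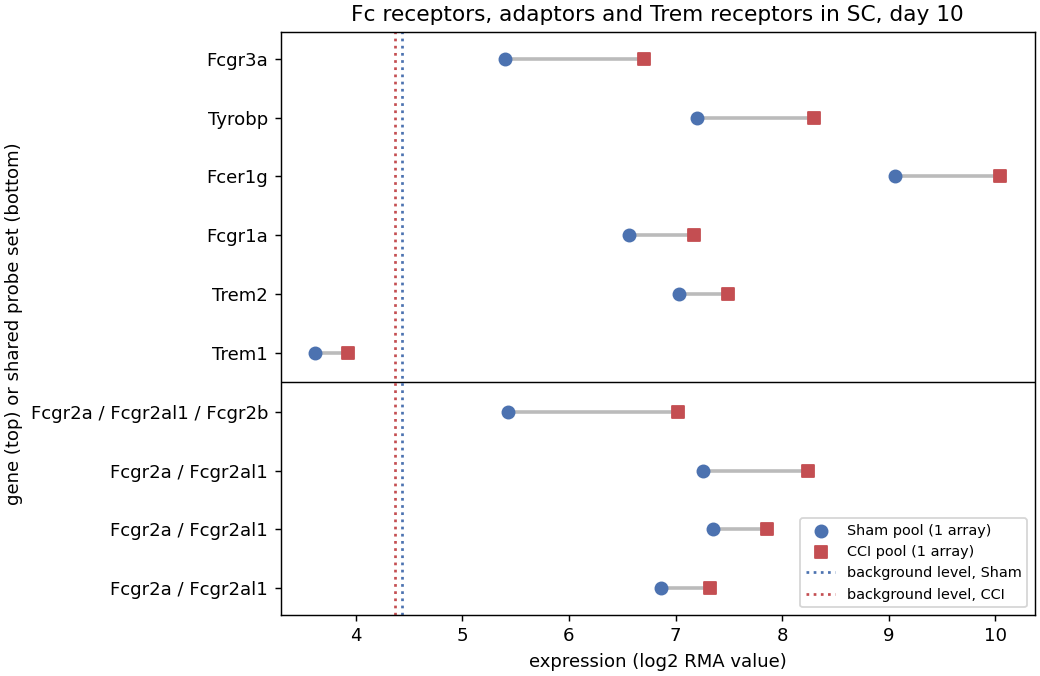
Log2 RMA value (horizontal axis) of the 6 measured genes (above the line) and of the 4 shared low-affinity Fc receptor probe sets (below it), with circles for the Sham pool, squares for the CCI pool, 1 array each, and dotted lines for the background levels. Every CCI value lies to the right of its Sham value, and Trem1 lies below background in both pools.

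Fcgr3a encodes a low-affinity activating receptor for IgG that signals through FcRγ. It was at 5.40 in the Sham pool and 6.71 in the CCI pool. The difference of 1.30 (2.47-fold) was the widest of the 6 genes and ranked 20 among all 18171 genes. Fcgr1a encodes the high-affinity IgG receptor, which also depends on FcRγ. The Sham value was 6.56 and the CCI value 7.17. Its difference of 0.61 (1.52-fold) was just past the threshold and ranked 272. The difference for Fcgr1a was smaller than that for Fcgr3a, although no error can be attached to either.

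The remaining low-affinity receptors could not be read gene by gene. Fcgr2b lies next to Fcgr3a in the RefSeq gene order, and 4 probe sets were annotated to several of the related genes Fcgr2a, Fcgr2al1 and Fcgr2b. The only probe set that included the inhibitory receptor Fcgr2b, beside Fcgr2a and Fcgr2al1, had a Sham value of 5.43 and a CCI value of 7.03, a difference of 1.60 (3.02-fold). Whether Fcgr2b RNA contributed to it was not resolved. The 3 probe sets annotated to Fcgr2a and Fcgr2al1 had smaller differences. The first was at 7.26 and 8.24, 1.98-fold higher in CCI. The second was at 7.35 and 7.86 (1.42-fold), and the third at 6.86 and 7.32 (1.37-fold). All 4 probe sets were higher in CCI, and 2 of them passed 1.5-fold, compared with 3.30% of the 575 probe sets on the array annotated to several genes. Whether the Fcgr3a probe set, annotated to 1 gene, also takes up RNA of these relatives was not tested.

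Of the adaptors, Fcer1g had a Sham value of 9.06 and a CCI value of 10.05. Tyrobp had values of 7.20 and 8.30. The difference was 0.99 (1.99-fold) for Fcer1g, ranked 47, and 1.10 (2.14-fold) for Tyrobp, ranked 35 among all genes. The adaptors thus differed from each other by only 0.11 on the log2 scale in their CCI-Sham difference. Compared with its adaptor Fcer1g, Fcgr3a had a difference larger by 0.32 and Fcgr1a one smaller by 0.38.

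Trem2 encodes a microglial receptor for lipids and lipoproteins that signals through DAP12. Its values were 7.03 in the Sham pool and 7.49 in the CCI pool, a difference of 0.46 (1.38-fold) that did not reach the threshold and ranked 610. The difference for Trem2 was smaller than that for Tyrobp by 0.63 on the log2 scale. Trem1, an amplifier of inflammatory responses in neutrophils and monocytes that also uses DAP12, was at 3.62 and 3.92. Both values lay below the background level, so the nominal difference of 0.30 carries no fold and Trem1 cannot be called expressed or higher from these arrays. Without Trem1, the other 5 genes were above background in both pools.

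**Figure D2:**
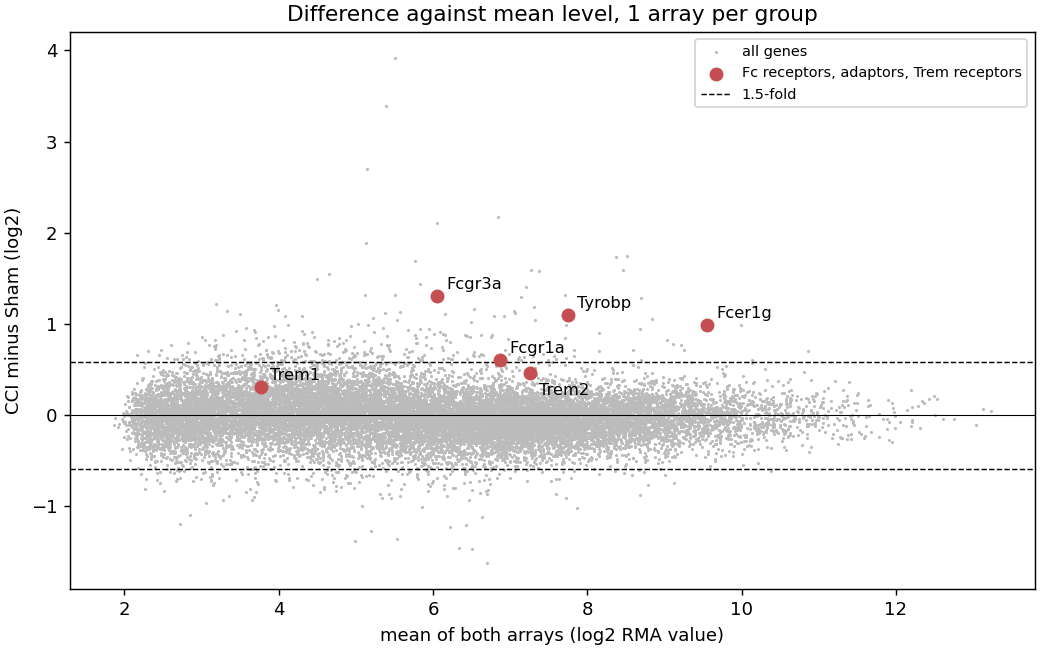
Difference between CCI and Sham (vertical axis, log2) against the mean log2 RMA value of both arrays (horizontal axis) for all 18171 genes (grey) and the 6 measured genes (red), with dashed lines at 1.5-fold. Fcgr3a, Tyrobp and Fcer1g lie apart from the bulk of genes of their level, Fcgr1a lies at the upper line, and Trem2 and Trem1 lie below it.

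By distance in the plane of the Sham and CCI log2 values, over 2 arrays only, the genes nearest to Tyrobp were Anxa3, at 7.23 and 8.22 (1.99-fold, distance 0.08), Tuba1c at 0.16 and P2ry13 at 0.18. Those nearest to Fcer1g were Cd48, at 9.41 and 9.94 (1.44-fold, distance 0.37), Lcp1 at 0.41 and Rpl5l1 at 0.42. Genes this near to an adaptor are higher in CCI by construction, so their direction carries no information. The size of the difference was also held near that of the adaptor, more tightly at smaller distances. The sizes are therefore given as description only. Anxa3, Tuba1c and P2ry13 had differences of 0.99, 1.31 and 0.85, beside 1.10 for Tyrobp. Cd48, Lcp1 and Rpl5l1 had smaller differences than Fcer1g, at 0.53, 0.59 and 0.40, beside 0.99.

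The genes were also set beside their neighbours on the chromosome, in the gene order of the GRCr8 assembly, a comparison chosen after values had been seen. Among the 33 nearest measured genes, 3 on each side of each gene, the median difference was 0.01 with a range from -0.70 to 0.50. None was higher past 1.5-fold and 1 was lower, Dusp12, at 7.99 and 7.29 (1.62-fold lower). Over all genes 1.64% were higher and 1.14% lower past it, so these counts do not set the neighbours apart from other genes. Genes without a probe set of their own were left out, among them Fcgr2b and Fcgr2a, near Fcgr3a on chromosome 13. Of the 4 shared probe sets annotated to these relatives, 2 were higher past 1.5-fold, and the one that includes Fcgr2b was 3.02-fold higher. Beside Fcer1g, Tomm40l was at 8.20 and 8.19, and the metalloproteinase gene Adamts4 was at 7.58 and 7.02 (1.47-fold lower). Hcst, which encodes the adaptor DAP10 and lies next to Tyrobp, was at 3.36 and 3.66, below background in both pools. Trem1 and Trem2 lie in one cluster with Treml1, Treml2, Treml4 and Trem3. Treml2, a receptor of lymphoid and myeloid cells, was at 4.47 and 4.96 (1.41-fold). Treml4, at 3.50 and 3.80, and Trem3, at 3.37 and 3.15, were below background in both pools, and Treml1, a platelet receptor, had values of 4.28 and 4.47, at least 1.02-fold higher. Of these 4 genes of the Trem list, 3 had higher values in CCI and none passed 1.5-fold, with a median of 0.25.

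**Figure D3:**
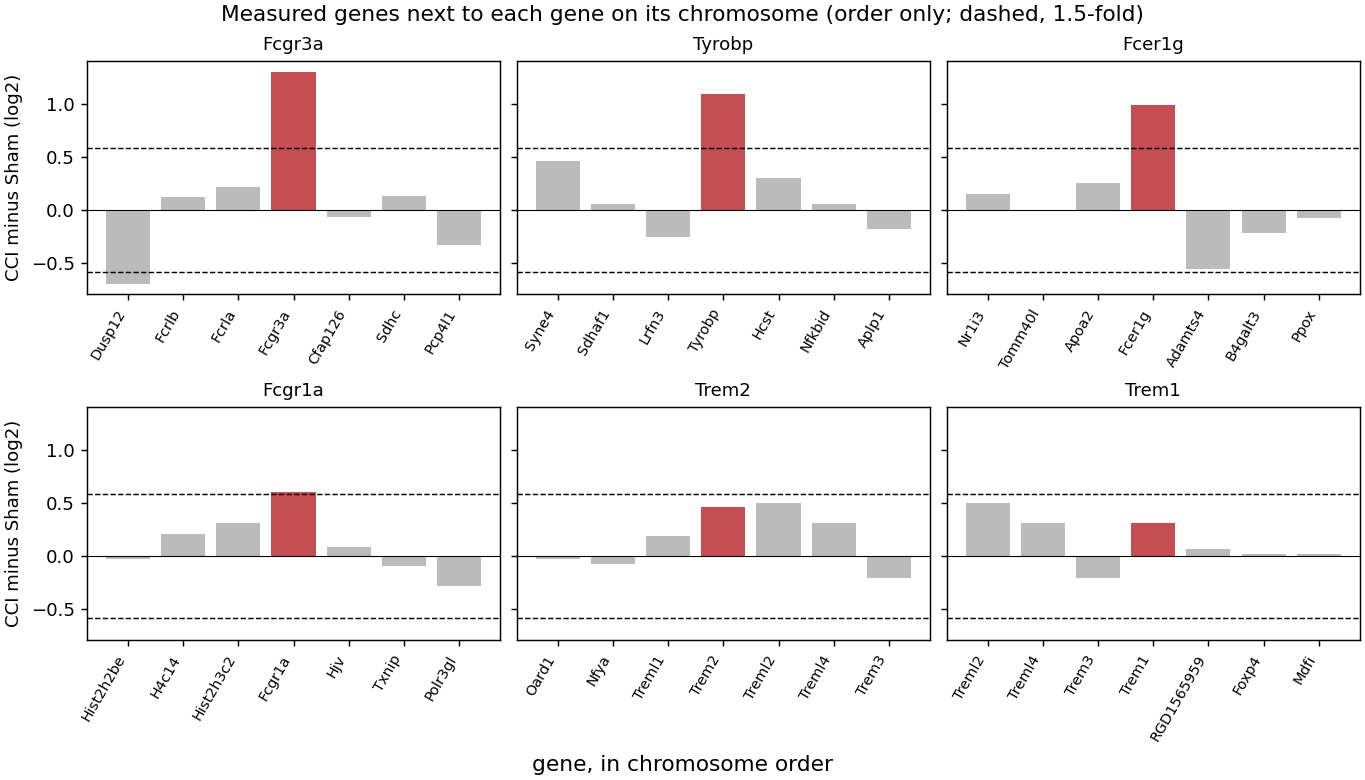
Difference between CCI and Sham (vertical axis, log2) of each measured gene (red) and of the nearest measured genes on either side (grey), in chromosome order and not to scale (horizontal axis), with dashed lines at 1.5-fold. The bars of Fcgr3a, Tyrobp and Fcer1g and, narrowly, Fcgr1a stand above the upper line, as 1.64% of all genes would. None of the neighbours shown does. Genes without a probe set of their own, such as Fcgr2b beside Fcgr3a, are not shown.

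For the lists of related genes that follow, the shares over all genes to read beside the counts are again 47.6% higher, 1.64% higher past 1.5-fold and 1.14% lower past it. Other Fc receptors had smaller differences. Of 15 measured, which bind IgE, IgM or IgG or are related to Fc receptors by sequence, 14 had higher values in CCI but none passed 1.5-fold in either direction, and the median was 0.12. Both values of 7 of them lay below background, among them the IgE receptor chains Fcer1a, at 2.77 and 2.89, and Ms4a2, at 2.71 and 2.78. Fcer1g serves the IgE receptor too, but the other chains of that receptor were not above background. The largest difference was that of Trim21, a cytosolic antibody receptor, at 5.91 and 6.28 (1.29-fold), followed in size by that of Fcrl2, at 5.51 and 5.15 (1.28-fold lower). The IgM receptor Fcmr was at 4.85 and 5.14 (1.23-fold). Fcamr was at 4.19 and 4.44, with a bound of 1.00-fold.

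Of 18 measured genes listed as receptors that couple to FcRγ or DAP12 or act with them, 12 had higher values, and 2 were past 1.5-fold above background, with a median of 0.08. Itgam, an integrin chain of the complement receptor, was at 5.68 and 6.57 (1.86-fold), and Csf1r, the receptor for the microglial growth factors Csf1 and Il34, was at 8.82 and 9.60 (1.71-fold). Clec2d, a listed lectin not known to use these adaptors, was past it too by its nominal difference, but both values, 3.57 and 4.26, were below background. Clec5a, a classical DAP12 partner, was at 3.35 and 3.75, also below background. In all, 12 of the 18 lay below background in both pools. Itgam and Csf1r are microglia markers as well, so that apart from Clec2d no gene of the list was past the threshold without them. Over the 3 genes at or above the median level of all genes, Csf1r, Itgam and Itgb2, the median of the list was 0.77. The integrin chain Itgb2 was at 5.97 and 6.15 (1.13-fold). Of 10 other subunits with an ITAM or a related motif, 7 had higher values, and 1, the β-glucan receptor Clec7a, which carries a shortened ITAM, was at least 4.16-fold higher, at 3.79 and 6.49. Clec7a lay under the median level of all genes. The median of the list was 0.13. The B-cell receptor chain Cd79b was at 4.46 and 4.96 (1.41-fold), and the T-cell receptor chains Cd3e, at 3.30 and 3.68, and Cd3g, at 2.85 and 2.44, were below background.

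Of 37 measured molecules that carry the ITAM signal, 24 had higher values in CCI and 7 passed 1.5-fold, whereas none passed it downwards. The median was 0.13, and of the 7 genes 3 lay at or above the median level of all genes. The adaptor Fyb1 was at 4.53 and 5.52 (1.99-fold), the GTPase Rac2 at 5.97 and 6.85 (1.84-fold), the actin regulator Was at 4.93 and 5.72 (1.72-fold) and the exchange factor Vav1 at 4.83 and 5.53 (1.62-fold). The others past the threshold, named after their values were seen, were the Src-family kinase Lyn, at 6.28 and 6.95 (1.59-fold), the adaptor Lat2 (1.59-fold) and the adaptor Lcp2 (1.52-fold). Syk, the kinase that docks on the ITAM, was at 4.28 and 4.55, and its lower bound of 1.08-fold, taken because the Sham value was below background, leaves a difference undecided. The phospholipase Plcg2, which acts after Syk, was at 4.44 and 4.36, close to the background level in both pools, and was named after its value was seen.

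Some of the genes listed as inhibitory had higher values past 1.5-fold. The lists were taken as given, and the inhibitory role of each gene was not examined. Of 18 measured inhibitory receptors, 14 had higher values, with a median of 0.14. Past 1.5-fold were 4 by the nominal difference and 3 by the bound, none of them at or above the median level of all genes. The lectin Clec4a3, at 4.19 and 6.08, was at least 3.12-fold higher. The related lectin Clec4a1 was at 4.78 and 5.69 (1.88-fold). Siglec8, at 3.89 and 4.78, and Cd22, at 4.31 and 5.12, both sialic acid receptors, were at least 1.26-fold and 1.60-fold higher, so that Siglec8 is the gene not past 1.5 by the bound. Of 17 molecules of inhibitory signalling, 12 had higher values, and 3 passed 1.5-fold by the nominal difference and 2 by the bound, with a median of 0.05. The phosphatase Ptpn6, which docks on ITIMs, was at 6.58 and 7.29 (1.64-fold). Sh2d1b, an adaptor of the SLAM receptors, was at 5.55 and 6.18 (1.55-fold), and Sla was at 5.31 and 5.85 (1.46-fold). Dok2, the third by the nominal difference, was at 3.93 and 4.57, at least 1.10-fold higher. Inpp5d, the lipid phosphatase that acts with Fcgr2b, was at 5.92 and 6.29 (1.29-fold), named after its value was seen.

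**Figure D4:**
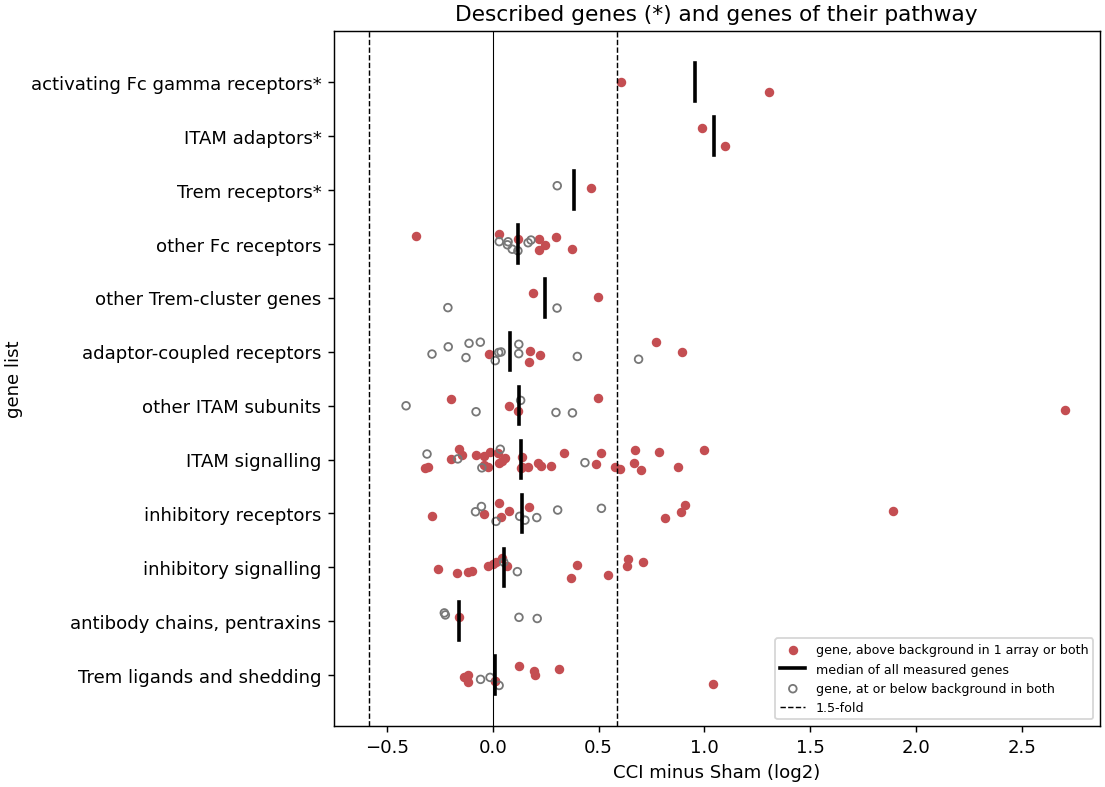
Difference between CCI and Sham (horizontal axis, log2) for each gene of the described groups (asterisk) and of the pathway lists (vertical axis). Filled points are above background in at least 1 pool, open points below it in both, and bars mark list medians. The adaptor and activating receptor medians lie to the right of the 1.5-fold line, and those of all other lists to its left.

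Antibody chains and other Fc ligands were mostly below background or without a probe set of their own. Of 14 antibody chains and pentraxins, 5 were measured by a probe set of their own, 2 of them with higher values, and the median was -0.16. Jchain, at 3.47 and 3.24, Iglc1, at 3.40 and 3.61, and Crp, at 2.88 and 2.65, were below background, and Apcs was at 5.10 and 4.94. None passed the threshold. The antibody heavy chains were not analysed here. Of 13 genes that encode Trem ligands, their processing or related receptors, 8 had higher values and 1 passed 1.5-fold, with a median of 0.01. This was Ms4a6a, below the median level of all genes, a membrane protein whose gene cluster is linked in humans to levels of soluble TREM2, at 5.01 and 6.05 (2.06-fold). Anxa2 was at 8.68 in Sham and 1.24-fold higher in CCI, Apoe, a lipoprotein bound by Trem2, at 10.74 and 10.94 (1.14-fold), and the Trem1 ligand Pglyrp1 at 4.21 and 4.41, with no fold because the CCI value did not exceed the Sham background level. Adam17, which sheds Trem2, was at 7.70 and 7.71.

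The values of cell type markers are given beside these results, and their part in them was not tested. Of 19 microglia and macrophage markers, 18 had higher values in CCI and 12 passed 1.5-fold, with a median of 0.72 and a range from -0.03 to 1.75, and their summed linear level was 3952 in Sham and 7043 in CCI (1.78-fold). The difference for Fcgr3a was larger than that of 15 of these markers, those for Tyrobp and Fcer1g than that of 14 each, and that for Fcgr1a than that of 7. Trem2 exceeded 5 of the 19. Single markers differed widely, from C1qa (3.36-fold) and Aif1 (2.65-fold) to Cx3cr1 (1.64-fold), P2ry12 (1.38-fold), Tmem119 (1.21-fold) and Sall1, at 7.72 and 7.69. Spi1 was at 5.93 and 6.59 (1.58-fold). Cebpb, which is on no list and was named after its value was seen, was at 4.84 and 4.86 (1.01-fold).

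Markers of other myeloid cells were mixed. Of 8 border macrophage markers, 1 had a higher value and 7 had lower values, none past 1.5-fold, with a median of -0.25 and a range from -0.43 to 0.02, and Cd163 and Ms4a7 were below background in both pools. Of 7 monocyte markers 3 had higher values, Plac8 (4.50-fold) and Lyz2 (1.52-fold) past the threshold, with a median of -0.17 and a range from -0.40 to 2.17. Ccr2, the chemokine receptor that defines inflammatory monocytes, was below background in both pools. Of 10 neutrophil markers, 6 had higher values, with a median of 0.12 and a range from -0.32 to 0.66. Mpo, S100a8, S100a9, Elane, Ngp, Ltf, Cxcr2 and Mmp8 lay below background, among them Ngp, the only one past 1.5-fold by its nominal difference, so that by the bound none was. Csf3r, at 4.72 and 5.23 (1.43-fold), was above background in both pools, and Camp was above it in the CCI pool alone.

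Lymphoid, mast cell and platelet markers had none past 1.5-fold. Of 7 NK cell markers 4 had higher values (median 0.01, range -0.15 to 0.47), and Ncr1, Klrd1, Nkg7, Gzmb, Prf1 and Gzma lay below background, while Eomes, at 4.79 and 4.74, was above it in both pools. Of 8 T-cell markers 5 had higher values (median 0.22, range -0.41 to 0.38), and Cd3d, Cd3e, Cd3g, Cd2, Lck and Cd28 lay below background, while Cd5 and Cd8a were above it in both pools. FcRγ or DAP12 can be found in some lymphoid cells too, and the part of these cells in the results was not tested. Of 6 B and plasma cell markers 3 had higher values (median -0.01, range -0.39 to 0.50), and Ms4a1, Jchain, Mzb1 and Cr2 lay below background. Cd79a and Cd79b were above it in both pools. Of 7 mast cell markers 3 had higher values (median -0.15, range -0.41 to 0.53), and Cpa3, Tpsb2, Tpsab1, Mcpt1, Ms4a2 and Hdc lay below background. Kit was above it in both pools. Of 5 platelet markers 3 had higher values (median 0.19, range -0.06 to 0.26), and Itga2b and Ppbp lay below background. Pf4 and Gp9 were above it in both pools, and Treml1 in the CCI pool alone.

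The labelled tissue was checked with neuronal and glial markers, and all measured markers of neurons, astrocytes and oligodendrocytes were above background. Of 8 neuronal markers, 8 had lower values in CCI and 2 passed 1.5-fold, Chat (1.68-fold lower) and Gad1 (1.56-fold lower), with a median of -0.26 and a range from -0.74 to -0.10. Of 6 astrocyte markers 3 had higher values (median 0.03, range -0.15 to 0.36), as had 3 of 6 oligodendrocyte markers (median 0.03, range -0.24 to 0.17). Of 4 Schwann cell markers 1 had a higher value (median -0.13, range -0.31 to 0.18), with Egr2 below background, as had 1 of 5 endothelial markers (median -0.28, range -0.34 to 0.13). No astrocyte, oligodendrocyte, Schwann cell or endothelial marker passed 1.5-fold.

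**Figure D5:**
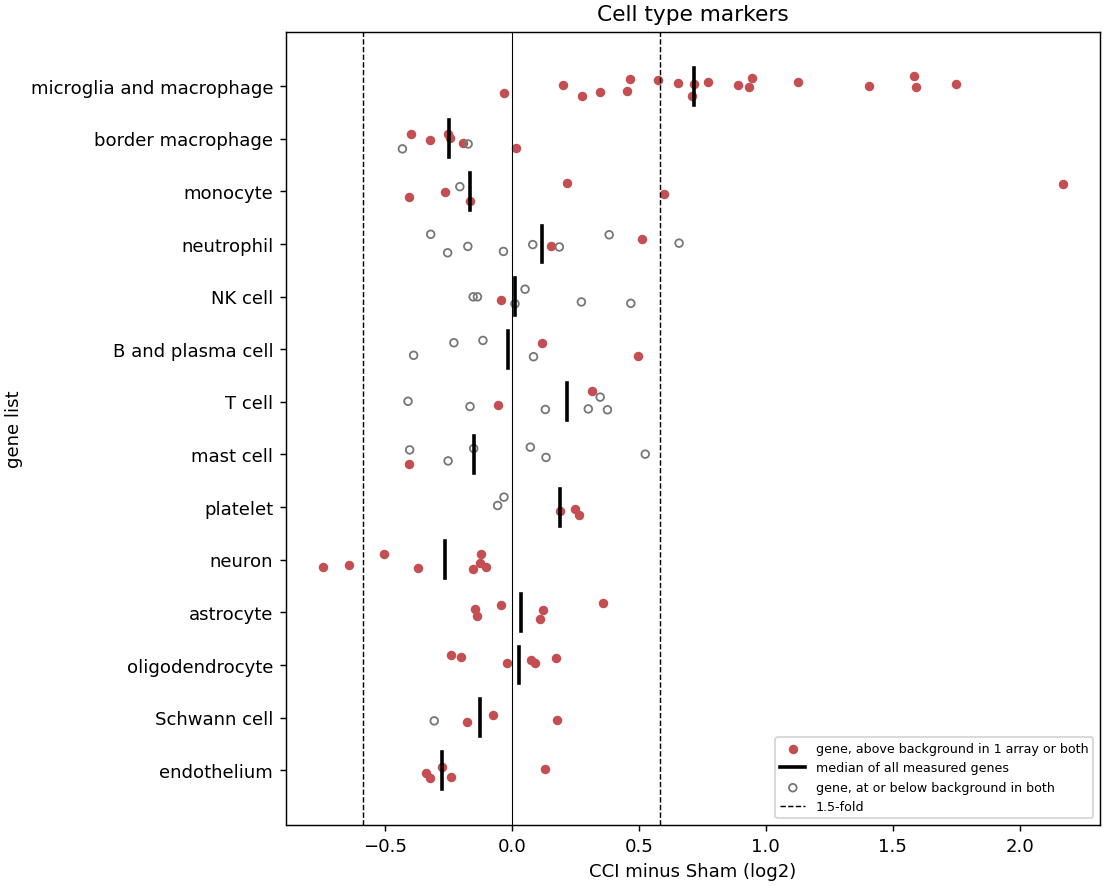
Difference between CCI and Sham (horizontal axis, log2) for each marker of 14 cell type lists (vertical axis). Filled points are above background in at least 1 pool, open points below it in both, bars mark medians and dashed lines 1.5-fold. The microglia and macrophage median of 0.72 is the only one to the right of the 1.5-fold line.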

How the data were processed

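Total RNA of lumbar SC from 3 rats per group was mixed into 1 sample per group and hybridised to Affymetrix Rat Gene 2.0 ST arrays, 1 Sham and 1 CCI. The authors normalised the raw intensities by RMA and deposited log2 values, which were used as deposited. RMA equalises the distributions of the arrays and compresses low values, so folds of dim genes can be understated. Scanner files and detection calls were not used here. Precision is limited by having 2 arrays. Groups came from the sample titles, where CCI is called the model.

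Of 28879 probe sets, the platform annotation gave 18511 to 1 gene, 575 to several and 9793 to none. Symbols were updated through the Entrez ID in a RefSeq table (GRCr8) for 18394 probe sets. No genome build is stated for the platform annotation. Per gene the probe set with the highest mean was kept, giving 18171 genes. Differences and folds were computed in Python 3.11.15 with pandas 2.3.3, and a lowess trend (span 0.3) with statsmodels 0.14.6. Counting, trend and bounds were checked on simulated data. The background level came from 1345 olfactory and vomeronasal receptor genes, a reference chosen after values were seen.

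All 8 listed genes are named, with up to 4 members of each of 9 pathway lists by absolute difference, the counts of 14 marker lists, and the 3 genes nearest to each adaptor. Of other genes, those chosen after their values were seen are mainly markers, neighbours and Cebpb, Syk, Plcg2, Lyn, Lat2, Lcp2, Inpp5d, Adam17 and Itgb2. The genes and lists were chosen with earlier results of these data known. Alternatives were a 2-fold threshold, a floor at the median level, subtraction of the trend, the mean over probe sets, centring, platform symbols, list means, the 99th percentile as background, lists without shared members and, added after seeing the data, counts by fold or lower bound.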

Additional observations from a re-analysis of the deposited data

How the results depend on the processing

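After subtraction of the intensity trend, averaging of probe sets, centring and use of platform symbols, the 6 measured genes kept their direction. Their side of 1.5-fold was kept too. With the higher background level the folds of 5 genes kept their side, and Trem1 had no fold. Past 2-fold, 2 of the 6 genes were counted, with 44 genes of the array higher and 13 lower. With the floor on level, the median of the genes was 0.99, since Trem1 left, and 92 genes were higher and 79 lower. The monocyte median turned from -0.17 to 0.22 with the floor, since Ccr2 and Ly6c, both with lower values in CCI, left. The mean of the monocyte list without the floor was 0.28, with Plac8 at 2.17 as its largest difference. With the floor, genes past 1.5-fold went from 7 to 3 for ITAM signalling, from 4 to 0 for inhibitory receptors and from 1 to 0 for ITAM subunits, Trem ligands and neutrophils. The median went from 0.08 to 0.77 over 3 genes for adaptor-coupled receptors and from 0.12 to 0.37, the value of 1 gene, for other Fc receptors. By fold or lower bound, a count added after seeing the data, 168 genes were higher and 133 lower. In all, 23 list values moved and 452 kept within their limits. Fcgr1a lies near the 1.5-fold threshold. No paired analysis was possible because each group was 1 array. With 1 array a group none could be left out, and the spread among the pooled rats is unknown.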
